A study of Mus musculus with 2 samples.

Results

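The clustered protocadherin genes were taken as the protein-coding genes of mouse chromosome 18 whose symbols start with Pcdha, Pcdhb or Pcdhg, 57 of the 21896 protein-coding genes of the annotation. They form 3 neighbouring clusters, alpha with 14 genes, beta with 22 and gamma with 21. The study measured methylated DNA of the testis in 2 libraries, 1 per genotype, by capture with the methyl-CpG binding domain of the MBD2 protein and sequencing. Kaiso, the product of Zbtb33, binds methylated DNA through zinc fingers. The wildtype library came from a C57BL/6 testis of wildtype genotype and phenotype. The knockout library came from a testis of the C57BL/6 background labelled Kaiso KO by genotype, from offspring of generation 3 in which males are sterile. Ages, the knockout allele and the number of animals were not given in the sources used here. The free-text description of the knockout sample names the testis as wildtype and the mice as knockout. Every knockout value thus rests on the genotype label, the sample title and the column names. Zbtb33 itself had 303 wildtype and 83 knockout counts in 16 windows, which checks these labels only weakly, since captured DNA was read and the deleted part is unknown.

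Protocadherins are adhesion molecules of the cadherin superfamily, best known for giving each neuron its own surface identity. In the alpha and gamma clusters every gene has its own promoter and its own large variable exon, which is spliced to constant exons that the whole cluster shares. Beta genes consist of the variable exon only. In neurons most promoters of these clusters are chosen stochastically, with the help of CTCF and cohesin, while a few C-type genes at the ends of the alpha and gamma clusters follow other rules. DNA methylation of promoters and variable exons is known to go with silence of the unchosen genes, and DNMT3B and SMCHD1 are known to be needed for it.

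The deposited table lists 100 bp windows and holds 1676 windows overlapping these genes and 1 kb on each side, among 2537435 in all. Only windows with an unadjusted p-value below 0.05 in the authors' comparison of the libraries are in it, so ratios in it lean away from 1, and nothing is known of the windows it leaves out. Ratios are given as log2 of knockout over wildtype counts, each scaled by its library of 98549116 and 87710791 reads. Intervals are 95% intervals on approximate fragments, taken as the window counts divided by 4, and cover counting error only. With 1 library per genotype no difference has a replicate check, and no p-value is given. In DNA of a whole testis, a change of methylation within cells and a different mix of cells cannot be told apart.

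In most listed windows of the protocadherin clusters, methylated DNA was captured weakly in the wildtype library and far more strongly in the knockout library. Of the 1676 windows 1524 (90.9%) were higher in the knockout library and 152 lower, against 56.5% higher among all listed windows. The median level was 0.912 RPKM in wildtype and 6.04 in the knockout, RPKM being reads scaled to the length of the window and the reads of the library. The median over all listed windows was 4.45 and 4.06 RPKM. At 4-fold or more, 68.3% of the protocadherin windows were higher in the knockout, against 9.44% of all listed windows. Over the summed counts, 26798 in wildtype and 99048 in the knockout, the log2 ratio was 1.72 (1.68 to 1.76).

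All 3 clusters shared this direction. The alpha cluster, from 36929285 to 37189897 of chromosome 18 in mm10, held 535 listed windows with 10017 wildtype and 32671 knockout counts, a log2 ratio of 1.54 (1.47 to 1.60). The beta cluster, from 37263998 to 37522419, held 487 windows in its genes and their flanks, with 5086 and 27024 counts. It had the highest ratio, 2.24 (2.15 to 2.33). The gamma cluster, from 37660775 to 37842873, held 654 windows with 11695 and 39353 counts and a ratio of 1.58 (1.52 to 1.64). Beta exceeded alpha by 0.70 (0.60 to 0.81) and gamma by 0.66 (0.55 to 0.76) on the log2 scale. Alpha and gamma did not differ beyond counting error, with a difference of -0.045 (-0.13 to 0.043). In alpha and gamma these sums cover the variable exons, the constant exons and the DNA between them. In beta they cover only the genes with 1 kb on each side, 118 of the 258 kb. The differences between beta and the other clusters thus set unlike regions side by side.

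**Figure D1:**
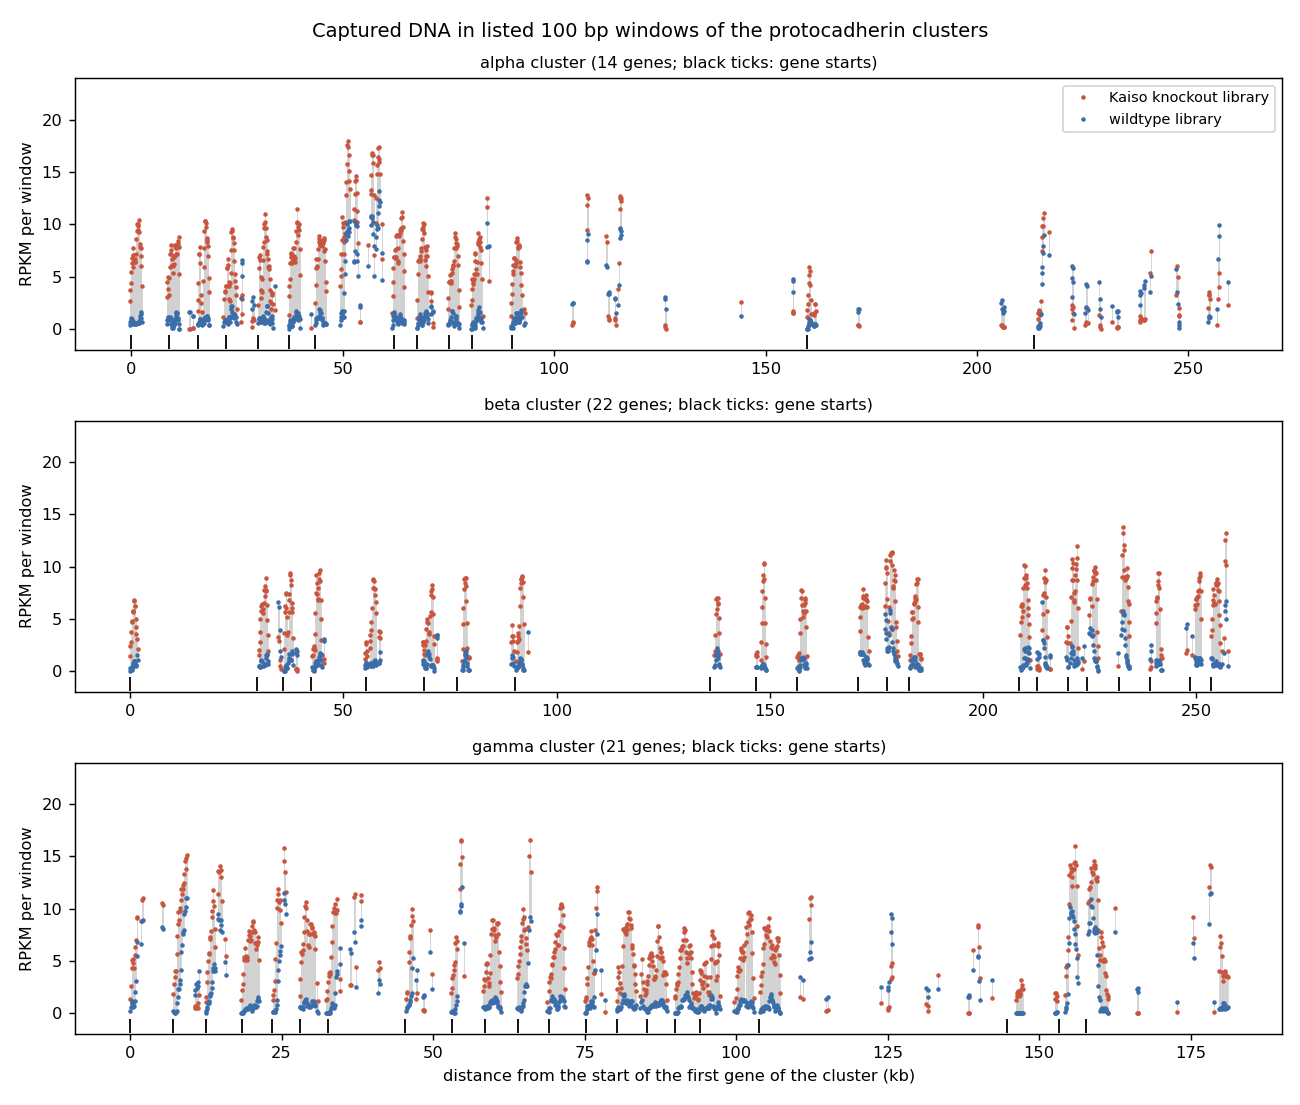
RPKM of every listed 100 bp window in the wildtype (blue) and Kaiso knockout (red) library, by distance in kb from the start of the first gene of each cluster; grey lines join the values of a window and black ticks mark gene starts. Windows bunch at and after the gene starts, where the median is 0.798 in wildtype and 6.29 in the knockout.

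The listed windows bunched over the variable exons. For each gene its own part was set from 1 kb before to 3 kb after its start, which for alpha and gamma genes is the end of the gene span that is not shared with the rest of the cluster. These 57 own parts do not overlap, and cover 228 of the 560 kb of the gene spans with their flanks. They held 1359 of the 1676 windows, or 59.6 per 10 kb, against 8.89 per 10 kb between them and 12.3 in the constant parts. In the own parts 1328 windows were higher in the knockout library and 31 lower (97.7% higher), against the 56.5% over all listed windows. Adjacent windows share fragments, so these windows are not independent. No window of an own part was free of knockout reads, while 55 were free of wildtype reads. Among all 2537435 listed windows 37953 were free of knockout reads and 31585 of wildtype reads. A window without wildtype reads can be listed only where the knockout library has reads. The authors' relative methylation score, a measure of signal for the CpGs of a window whose scale is not stated, was 0.019 at the median of the wildtype library and 0.102 at that of the knockout.

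Within the own parts the order of the clusters changed, with alpha on top. The alpha own parts had 2953 wildtype and 22811 knockout counts, a log2 ratio of 2.78 (2.67 to 2.89), and 365 of 366 windows were higher in the knockout. For beta the counts were 4660 and 26363, with a ratio of 2.33 (2.24 to 2.42). For gamma they were 8855 and 33449, with a ratio of 1.75 (1.68 to 1.82). Alpha exceeded beta by 0.45 (0.31 to 0.59) and gamma by 1.03 (0.90 to 1.16), and beta exceeded gamma by 0.58 (0.47 to 0.70). Own-part windows held 4.47 CpGs on average in alpha, 3.19 in beta and 3.98 in gamma. The order alpha, beta, gamma was the same in each class from 1 to 5 CpGs, with the gamma intervals below the other two and those of alpha and beta overlapping from 2 CpGs on. With more CpGs all intervals overlapped. With 6 to 10 CpGs the ratios were 3.05 (2.84 to 3.27) in alpha, 3.01 (2.75 to 3.28) in beta and 2.82 (2.60 to 3.06) in gamma. With 11 or more CpGs gamma had 3.06 (2.56 to 3.66) in 15 windows and alpha 2.76 (2.14 to 3.38) in 9.

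The constant parts, which include the exons for the shared cytoplasmic ends of alpha and gamma proteins, differed between the alpha and gamma clusters. They were set from 3 kb after the start of the last gene of each cluster to 1 kb past the shared end, since exon positions were not used here. The alpha constant part, from 37146678 to 37189897, had 1306 wildtype and 929 knockout counts, a log2 ratio of -0.66 (-0.91 to -0.41), with 33 of 46 windows lower in the knockout. Its variable parts lay 3.44 (3.17 to 3.71) above it. Its negative ratio rested on windows with 1 or 2 CpGs, which had 1179 and 743 counts, whereas the 6 windows with 3 or more CpGs had 127 and 186. Of its 40 windows with 1 or 2 CpGs 9 were higher in the knockout, against 42.8% of all listed windows with 1 or 2 CpGs. The gamma constant part, from 37822546 to 37842873, had 606 and 1456 counts and a ratio of 1.10 (0.81 to 1.37). Variable parts of gamma exceeded it by 0.65 (0.37 to 0.93), but by 0.29 (0.029 to 0.56) with own parts ending 2 kb after the start. In windows with 1 or 2 CpGs the difference was within counting error, at 0.15 (-0.32 to 0.62). The alpha constant part lay 1.76 (1.39 to 2.12) below the gamma one.

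In the gamma constant part, the knockout counts lay mostly near the shared end. The stretch from 37840001 to 37845000, which includes that end, had 180 wildtype and 793 knockout counts in 17 windows, a log2 ratio of 1.97 (1.50 to 2.47). Farther from the end, from 37827901 to 37828200, 3 adjacent windows held 59 wildtype counts and no knockout count. Those windows were picked because they held none.

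DNA between the own parts of the members differed less between the libraries. In alpha it had 5758 wildtype and 8931 knockout counts (log2 0.47, 0.37 to 0.56), in beta 426 and 661 (0.47, 0.11 to 0.84) and in gamma 2234 and 4448 (0.83, 0.68 to 0.98). The beta sum covers only DNA within the genes and their 1 kb flanks. The gamma sum includes the region around the start of the pseudogene Pcdhgb8, which is no member. Without it gamma had 2033 and 2762 counts in 71 windows (0.27, 0.11 to 0.44), an alternative chosen after seeing the data. The stretch between own parts with the most listed windows lay between Pcdha7 and Pcdha8, from 36976811 to 36991466, where 57 windows had 3643 and 6752 counts. There the wildtype mean was 7.29 RPKM and the knockout mean 12.02, so this stretch, singled out after its values were seen, was well captured in both libraries (log2 0.72, 0.61 to 0.84). The long intron between Pcdhac1 and Pcdhac2 went the other way, with 173 wildtype and 30 knockout counts in 10 windows (-2.70, -3.89 to -1.49). Each of these 10 windows was lower in the knockout library. They held 1.4 CpGs on average. Of all listed windows with 1 or 2 CpGs 42.8% were higher in the knockout, with a median log2 ratio of -1.03 per window.

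Counted by gene, 51 of the 57 members were higher in the knockout library over the gene span with 1 kb on each side and none was lower, against 9.64% higher and 5.7% lower among 19241 protein-coding genes. A region counted as higher with at least 20 fragments, a ratio of at least 2 and an interval above 1. All 57 had the minimum. When scaled so that CpG-dense windows (5 or more CpGs) had a median log2 ratio of 0, 28 were higher, against 4.73% of all genes. At a fold of 4 the count was 16, against 3.67% of all genes. Spans of alpha and gamma genes contain each other, so these counts are not independent. Pcdha1, whose span holds the whole alpha cluster, had 9978 and 32649 counts and a log2 ratio of 1.54. Pcdhac2, the last gene, whose span is mostly constant part, had 1644 and 1606 counts and -0.20 (-0.40 to 0.0019). The other 5 that were not called were Pcdha10, Pcdha11, Pcdha12, Pcdhac1 and Pcdhgc4.

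By own part, which no gene shares, 53 of the 57 members were higher and none lower. The same region of 10451 protein-coding genes with a known strand was higher in 29.3% and lower in 16.8%. The median log2 ratio over the 57 was 2.70, against 0.53 over those genes, and 41 of the 57 reached 4-fold, against 15.5%. The 4 members that fell short of the fold were Pcdhac2, Pcdhgc4, Pcdhgc5 and Pcdhga1, each with an interval above 0. The 57 ratios ranged from 0.72 to 4.17. Mean knockout levels ranged from 2.05 to 10.1 RPKM and mean wildtype levels from 0 to 5.14 RPKM. The libraries thus overlapped over the whole set, but in every gene the knockout level was the higher one.

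**Figure D2:**
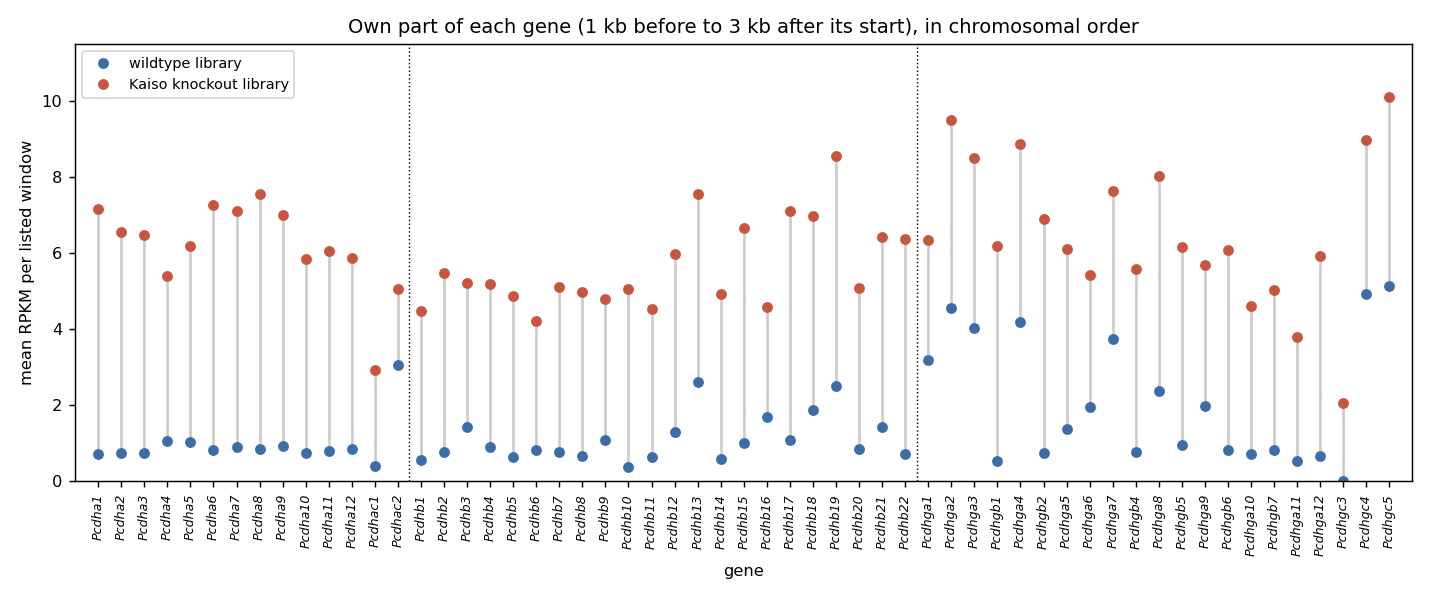
Mean RPKM per listed window in the own part of each of the 57 genes, in chromosomal order, for the wildtype (blue) and knockout (red) library, 1 library each; dotted lines part the alpha, beta and gamma clusters. Wildtype points of alpha genes lie between 0.406 and 1.05 except Pcdhac2 at 3.07, whereas the gamma genes spread up to 5.14.

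Alpha genes other than the C-type lay close together. Their 12 own parts had ratios from 2.36 to 3.32, and pooled wildtype and knockout counts gave 2.94 (2.82 to 3.06). Pcdha1, the gene farthest from the constant exons, had 182 wildtype and 2046 knockout counts, or 0.716 and 7.16 RPKM, a log2 ratio of 3.32 (2.87 to 3.78). Pcdha6 had 204 and 2004 counts (3.13, 2.71 to 3.57), Pcdha8 220 and 2159 (3.13, 2.73 to 3.55) and Pcdha3 163 and 1593 (3.12, 2.65 to 3.61). These 4 are indistinguishable within their intervals. At the lower end stood Pcdha4 with 277 and 1594 counts (2.36, 1.99 to 2.75) and Pcdha5 with 279 and 1892 (2.59, 2.22 to 2.97). The interval of Pcdha4 ended below the start of that of Pcdha1. These are the lowest and highest of the 12, picked by their values, and the intervals cover counting error only. Whether the group is uniform thus cannot be told from them.

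Beta genes were all higher, 22 of 22, with ratios from 1.44 to 3.76 and a median of 2.65. Pcdhb10 had 59 wildtype and 897 knockout counts, or 0.374 and 5.06 RPKM, and the highest ratio among the beta genes (3.76, 2.98 to 4.59). Pcdhb22 with 143 and 1445 counts (3.17, 2.66 to 3.69), Pcdhb14 with 132 and 1212 (3.03, 2.51 to 3.60) and Pcdhb1 with 90 and 795 (2.97, 2.37 to 3.72) followed. Pcdhb1 stands apart from the other beta genes at the head of the cluster and is known to lack the promoter element that the others share, yet its ratio lay within their range. The lowest were Pcdhb16 with 281 and 858 counts (1.44, 1.05 to 1.85), Pcdhb13 with 666 and 2159 (1.53, 1.28 to 1.79) and Pcdhb19 with 463 and 1769 (1.77, 1.46 to 2.07). Pcdhb13 and Pcdhb19 had the highest wildtype levels of the beta genes, 2.62 and 2.51 RPKM, and also their 2 highest knockout levels, 7.55 and 8.55. In Pcdhb16 only 11 of 19 windows were higher in the knockout. The 5 windows within 0.5 kb of its start had 67 wildtype and 16 knockout counts (-2.23, -4.29 to -0.64), the reverse of the rest of the gene. They held 2 CpGs on average, and of all listed windows with 1 or 2 CpGs 42.8% were higher. The starts of Pcdhb20 (49 and 15 counts) and Pcdhb21 (29 and 15) went the same way, each with fewer than 20 fragments. Of 15 beta starts with at least 20 fragments 12 were higher.

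Gamma genes were the most varied, with own-part ratios from 0.87 to 4.17. Genes of the B type, 6 in number, had ratios from 2.58 to 3.54 and a pooled 2.93 (2.76 to 3.11). Genes of the A type, 12 in number, ranged from 0.99 to 3.14, with a pooled 1.57 (1.49 to 1.66). The B genes, which alternate with A genes along the chromosome, exceeded them by 1.36 (1.17 to 1.55). Pcdhgb1 had 140 wildtype and 1831 knockout counts, or 0.532 and 6.19 RPKM (3.54, 3.04 to 4.08). Its neighbour Pcdhga4 had 662 and 1574, or 4.19 and 8.87 RPKM (1.08, 0.81 to 1.35). Pcdhgb2 with 190 and 1974 counts (3.21, 2.77 to 3.65) and Pcdhga12 with 183 and 1813 (3.14, 2.69 to 3.60) were the next highest of the A and B genes. Pcdhga1 had 420 and 940 counts, or 3.19 and 6.36 RPKM (0.99, 0.66 to 1.34), just under the fold for a call. The knockout levels of the types were alike, with medians of 6.23 RPKM for A and 6.12 for B, and the wildtype medians were 2.19 and 0.809.

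The C-type genes, whose expression in neurons is mostly not stochastic, covered the whole range. Pcdhgc3 had no wildtype count in its 12 windows and 243 knockout counts, 2.05 RPKM. With the floor of 3 fragments put in for wildtype, it was 18.02-fold higher in the knockout. Its log2 interval started at 3.84. It had the lowest knockout level of all 57 as well. Pcdhac1 had 57 wildtype and 464 knockout counts, 0.406 and 2.94 RPKM (2.86, 2.08 to 3.80). The other C-type genes had higher mean wildtype levels, from 3.07 RPKM in Pcdhac2 to 5.14 in Pcdhgc5. In Pcdhac2 the wildtype median was 0.969 RPKM, so its mean rested on part of its windows. Pcdhac2 had 377 and 699 counts (0.72, 0.36 to 1.11), Pcdhgc4 1122 and 2297 (0.87, 0.66 to 1.08) and Pcdhgc5 1218 and 2690 (0.98, 0.78 to 1.18). Pcdhgc4 and Pcdhgc5, neighbours at the end of the gamma cluster, had the highest wildtype levels of all members, 4.92 and 5.14 RPKM.

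Splitting each own part at 0.5 kb after the start separated the gamma types. Within 0.5 kb of the start, the A genes had 222 wildtype and 2587 knockout counts, 0.316 and 3.28 RPKM on average, a log2 ratio of 3.37 (2.97 to 3.78). From 0.5 to 3 kb after the start, in the exon body, they had 5024 and 14871 counts, 3.00 and 7.90 RPKM, and a ratio of 1.40 (1.31 to 1.49). The start exceeded the body by 1.98 (1.57 to 2.38). The B genes had 158 and 1485 counts at the start (3.06, 2.57 to 3.55) and 1072 and 9062 in the body (2.91, 2.73 to 3.10), with no difference beyond counting error between them (0.15, -0.35 to 0.66). At the start the types did not differ beyond counting error either, with B minus A at -0.31 (-0.93 to 0.31), while in the body B exceeded A by 1.51 (1.31 to 1.72). Thus the A genes were hardly captured in wildtype at the start. Along the exon body all of them but Pcdhga10 to Pcdhga12 were captured in both libraries.

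This followed the order of the genes in part. The 9 genes Pcdhga1 to Pcdhga9, a group set apart after their values were seen, had body levels from 2.06 to 5.80 RPKM in wildtype and from 6.51 to 11.2 in the knockout. Pcdhga10 to Pcdhga12 had 0.625 to 0.839 RPKM in wildtype, within or below the 0.641 to 1.05 RPKM of the 6 B genes. At the start all 12 A genes lay between 0.029 and 0.752 RPKM in wildtype. Pcdhga7 was the clearest case, with 6 wildtype and 246 knockout counts in 7 windows at the start (5.19, 2.87 to 7.86) and 552 and 1079 in the body (0.80, 0.50 to 1.11). Pcdhga5 had 2 wildtype and 224 knockout counts at the start. The split was seen at low and high CpG content. In body windows of the A genes the ratio was 1.05 with 1 or 2 CpGs and 1.67 with 3 or more, and at the start 3.66 and 3.29.

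**Figure D3:**
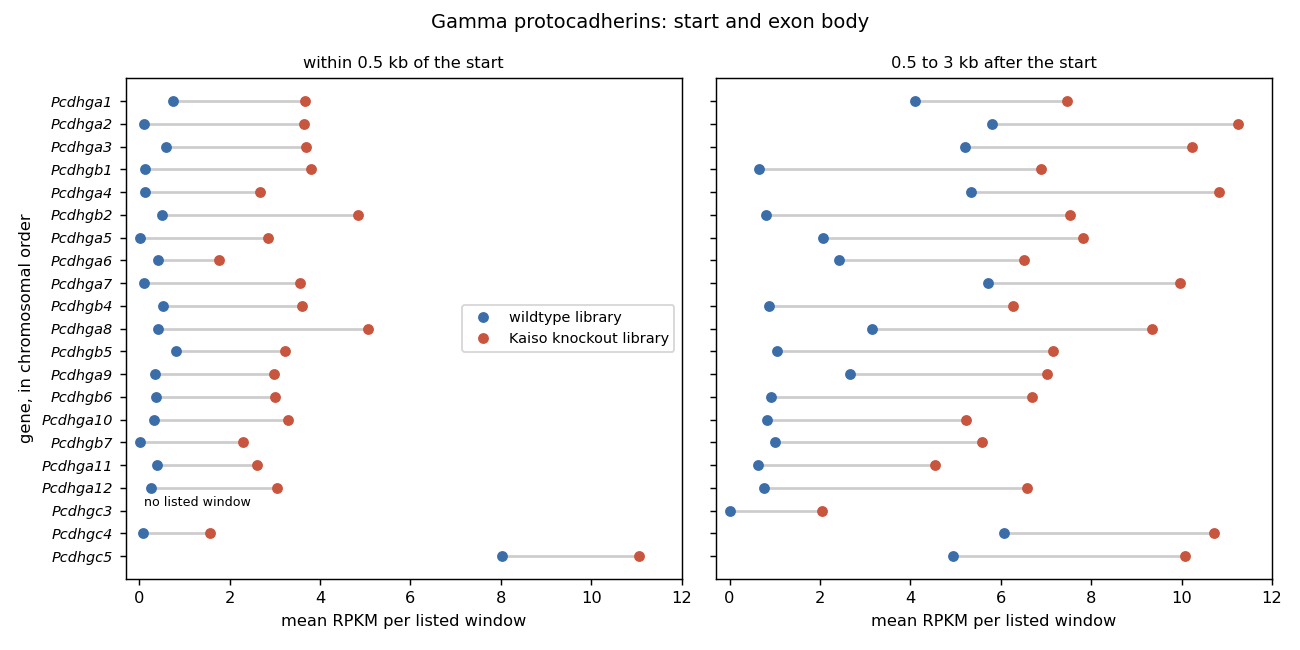
Mean RPKM per listed window of the 21 gamma genes in chromosomal order, within 0.5 kb of the start (left) and 0.5 to 3 kb after it (right), in the wildtype (blue) and knockout (red) library. At the start wildtype points lie under 1 except for Pcdhgc5 at 8.02, while in the body A genes up to Pcdhga9 stand between 2.06 and 5.80 and B genes near 1.

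In the other clusters the profile along the exon had another shape. Alpha genes had a log2 ratio of 2.97 (2.72 to 3.23) near the start and 2.74 (2.62 to 2.87) in the body, which did not differ beyond counting error (0.22, -0.056 to 0.50). Beta genes were lower near the start, at 1.58 (1.34 to 1.81), than in the body, at 2.56 (2.46 to 2.66), a difference of -0.98 (-1.24 to -0.73). Their knockout level was 3.06 RPKM at the start and 6.42 in the body, with 1.02 and 1.09 RPKM in wildtype. Between 1.5 and 2 kb after the start, where beta exons held the most CpGs per window, the beta genes had 840 wildtype and 8498 knockout counts, a log2 ratio of 3.17. Upstream of the start few windows were listed. From 1.5 to 1 kb before it, alpha genes had 104 wildtype and 28 knockout counts in 6 windows and beta genes 234 and 114 in 7, both in the reverse direction. These windows held 1.5 and 1.14 CpGs on average, and of all listed windows with 1 or 2 CpGs 42.8% were higher.

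**Figure D4:**
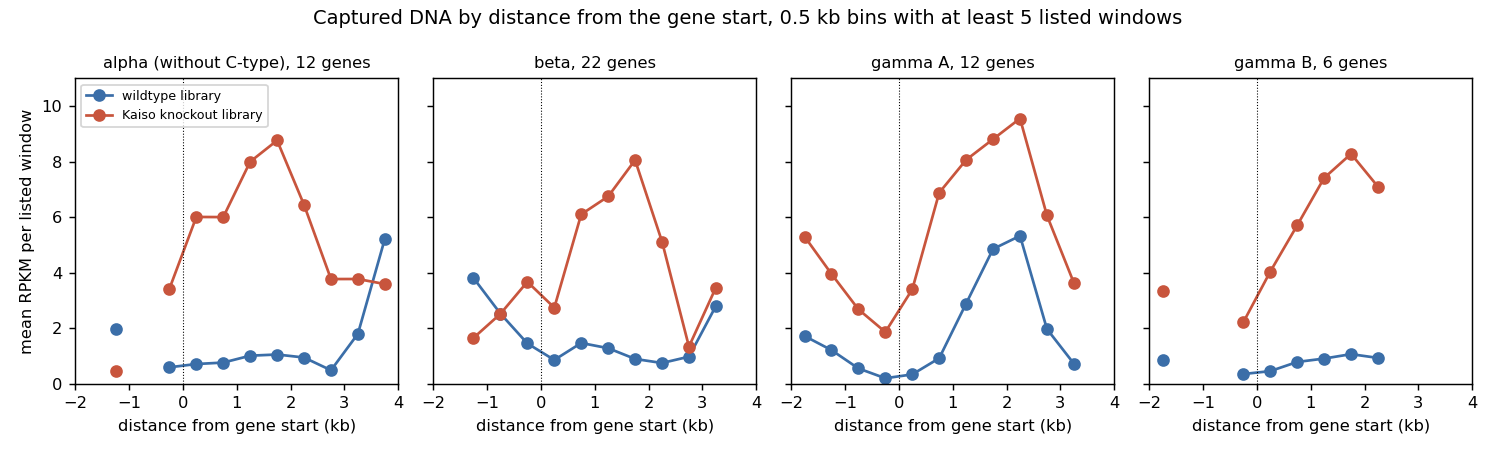
Mean RPKM per listed window by distance from the gene start in 0.5 kb bins with at least 5 listed windows, for alpha genes without C-type, beta, gamma A and gamma B genes, in the wildtype (blue) and knockout (red) library. From 0 to 2.5 kb wildtype stays between 0.456 and 1.47 in alpha, beta and gamma B genes and climbs to 5.33 in gamma A genes, while the knockout peaks between 8.06 and 9.56 in all 4 groups.

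Counted by gene, the start was higher in 42 of the 46 members with the minimum and lower in 1, Pcdhb16, against 48.8% higher and 15.8% lower among 3335 protein-coding genes. The body was higher in 51 of 57 and lower in none, against 22.7% and 19.8% of 8681. The 6 bodies that were not called were those of Pcdhac2, Pcdhgc4 and of the A genes Pcdhga1, Pcdhga2, Pcdhga3 and Pcdhga7, with ratios from 0.72 to 0.97.

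CpG content raises capture in general, so own-part windows were set beside all listed windows of the same content. With 1 CpG per window, the wildtype median was 0.684 RPKM and the knockout median 3.96, where all listed windows had 3.31 and 1.73. With 6 to 10 CpGs they were 0.684 and 7.21, against 8.21 and 12.7. Wildtype capture of the listed own-part windows was thus lower than that of the listed genome in every class. It hardly varied with CpG content, from 0.684 to 1.14 RPKM. As 1328 of these 1359 windows were listed with the knockout higher, the p-value filter itself favours low wildtype levels among them. The knockout level was below that of the listed genome from 3 to 10 CpGs and above it in the other classes. The log2 ratio of the own parts exceeded that of all other listed windows by 1.72 (1.64 to 1.80) at 1 or 2 CpGs and by 1.82 (1.76 to 1.89) at 3 or more.

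**Figure D5:**
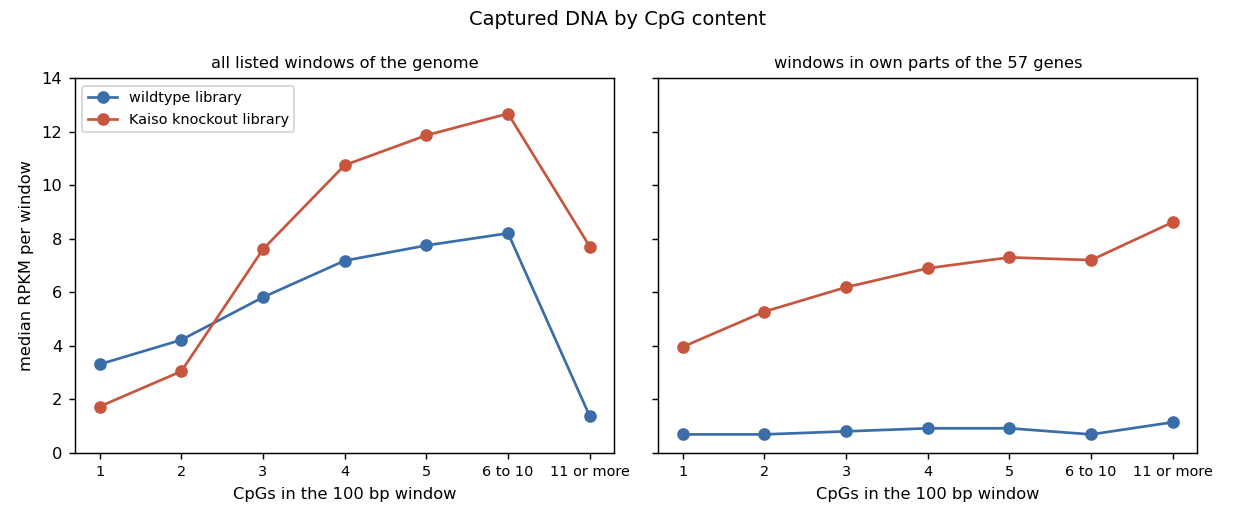
Median RPKM per window by the number of CpGs in the window, for all listed windows (left) and for the 1359 windows in own parts (right), in the wildtype (blue) and knockout (red) library. Over the listed genome both libraries rise with CpG content up to 10 CpGs, whereas in own parts wildtype stays between 0.684 and 1.14.

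Across members, a lower ratio went with a higher wildtype level (Spearman rho -0.88 over 57 genes). That is a description of values from 2 shared libraries, and the wildtype count enters both measures. The ratio went with the mean CpG content of the windows in gamma (rho 0.82 over 21 genes), with a rho of 0.13 in alpha (14 genes) and -0.029 in beta (22 genes). Wildtype and knockout levels had a rho of -0.059 in alpha, 0.62 in beta and 0.80 in gamma.

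Other protocadherin genes, outside the clusters, differed little over their spans. Of 13 non-clustered protocadherins, including Cdhr2, 1 was higher over the gene span (Pcdh18, 1.44) and none lower, with a median of 0.57 against 0.31 over all genes, of which 9.64% were higher. In the region from 1 kb before to 3 kb after the start, 6 of 10 with a known strand had the minimum. Their median was 1.86, and 4 were higher and 1 lower, against 29.3% and 16.8% of all genes with a strand. Higher were, among others, Pcdh8 with 20 wildtype and 357 knockout counts (3.99, 2.71 to 5.64) and Pcdh19 with 0 and 106. Pcdh18 was lower (-1.69, -2.67 to -0.91). Summed over these genes the start region had a ratio of 0.64, which the own parts of the clustered genes exceeded by 1.52 (1.27 to 1.77). Cdhr2 gave 495 of the 842 wildtype and 375 of the 1475 knockout counts. Without it, a choice made after seeing the data, the ratio was 1.50 (1.14 to 1.86) and the clustered genes exceeded it by 0.66 (0.31 to 1.01).

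Genes known to bind, fold, silence or methylate the clusters, listed together with Zbtb33, showed no such shift over their spans. Of 20, none was higher and 2 were lower, Zbtb33 (-2.04) and Lrif1, a partner of SMCHD1 (-1.51, -2.08 to -0.98), with a median of 0.27. Among all genes 9.64% were higher and 5.7% lower. Zbtb33 is the gene knocked out, with its deleted part unknown, and whether Kaiso acts on the clusters was not tested. Ctcf had 0.54, Smchd1 0.30 and Dnmt3b 0.37. At the start region 7 of 15 had the minimum, of which 4 were higher and 1 lower, against 29.3% and 16.8% of all genes with a strand. Dnmt1 (1.73, 1.33 to 2.12) and Stag1, a cohesin subunit (1.80, 1.24 to 2.35), were among the higher ones, as were Setdb1 with 0 wildtype and 106 knockout counts and Smc3 with 1 and 81.

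Genes that neighbour the clusters differed mostly little. Of 33 other protein-coding genes within 500 kb, 32 had the minimum, of which 6 were higher and 1 lower, with a median of 0.43. Among the 6 were Gm37013, Gm38666 and Gm38667, fusion genes that span the clusters and share the members' windows. Without them 3 of 29 were higher, near the 9.64% of all genes, with a median of 0.29. The others were Slc25a2 (2.11, 1.55 to 2.67) and Taf7 (1.32, 0.72 to 1.93), which lie between the beta and gamma clusters, and Dnd1, a germ cell gene (1.09, 0.86 to 1.32). Lower was Ndufa2 (-1.23). The pseudogene Pcdhgb8, within the gamma cluster and not a member, had 206 and 1733 counts around its start (2.90, 2.47 to 3.33), as the B genes did.

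Germline genes and maternally methylated imprinted genes, whose methylation is known to differ between male germ cells and somatic cells, were mostly higher too. At gene ends, 1 kb on each side of both ends, 22.5% of 14898 genes were higher and 13.5% lower. Of 12 germline genes 9 were higher and none lower, with 2762 wildtype and 12077 knockout counts in all and ratios from 0.92 to 3.66. Such genes are known to be unmethylated in germ cells and methylated in somatic cells. Of 14 maternally methylated imprinted genes, unmethylated in sperm, 12 had the minimum and 11 were higher, with 2154 and 10001 counts and ratios from 0.71 to 4.34, and Snrpn had no listed window. Of 3 paternally methylated loci 1 was higher, with 1136 and 2950 counts. Only gene ends were read, so methylated regions farther from the ends of these loci are not covered. At the same gene ends 46 of 56 protocadherins were higher and 2 lower. Genes of the alpha cluster share an end, as do those of gamma, so these counts are not independent. Median levels in windows with 3 or more CpGs were 0.912 and 7.10 RPKM for the germline genes, 0.456 and 4.36 for the maternally imprinted genes, and 0.798 and 6.90 for the protocadherin own parts. The part that the mix of germ and somatic cells has in the protocadherin values was not tested.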

How the data were processed

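The members, gene lists and alternatives were chosen with earlier results of these data known. Testis DNA from 2 libraries, 1 wildtype and 1 knockout, was compared. Bowtie2 2.2.6, edgeR and mm10 are named in the submitters' processing notes. Per the file headers, the authors deposited a read count, an RPKM value and a relative methylation score per 100 bp window and library, the CpG count of the window, and a log2 fold change with a p-value. Their log2 values gave no value printed here, and 11 other columns of sample or group values were not used. Read extension and the handling of reads that match several genes were not given in the sources used here, so reads of near-identical protocadherin exons may be shared between members.

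Library sizes were computed from counts and RPKM. Windows shared by genes counted once in sums over a cluster. Gene positions came from GRCm38.p6, the assembly of mm10, without exons, and strand was known for 17491 other genes. Fewer than 4 window counts were replaced by a floor of 3 fragments. Intervals of ratios were exact Clopper-Pearson intervals, and those of differences were Wald intervals. The computation was tested on simulated data. Named by rule were the 4 highest and 3 lowest own parts of each cluster, the C-type genes and members with 0 counts in a library. Other genes and stretches, the division of own parts at 0.5 kb, and the grouping of gamma types were chosen after values were seen. Python 3.11.15, scipy 1.17.1 and, for an alternative scaling, edgeR 4.0.16 were used.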

Additional observations from a re-analysis of the deposited data

How the results depend on the processing

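No paired analysis was possible because each genotype had 1 library, and for the same reason no replicate could be left out. Scaling by listed autosomal windows, by TMM, or by setting the median of listed windows with 5 or more CpGs to 0 moved every ratio by -0.27, -0.17 or -0.66. The log2 ratios of the alpha, beta and gamma clusters were then 1.27, 1.97 and 1.31 with autosomal windows, 1.36, 2.07 and 1.41 with TMM, and 0.88, 1.58 and 0.93 with the CpG-dense median. Scaling within CpG classes gave 1.08, 1.86 and 1.21. The alpha and gamma variable parts had 2.51 and 1.48, 2.61 and 1.58, 2.12 and 1.09, and 2.30 and 1.36 under these 4 scalings, in the same order. The alpha constant part had -0.93 with autosomal windows and -1.32 with the CpG-dense median, where the gamma constant part had 0.44. Within CpG classes the gamma constant part had 0.71, and the alpha difference of variable minus constant part was 3.11.

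Without the 1 kb flank the beta cluster had 2.42, alpha minus beta was -0.88 and beta minus gamma 0.85. With own parts ending 2 kb after the start, the alpha variable part had 2.92, the alpha constant part -0.40 and the gamma constant part 1.48, and the gamma difference of variable minus constant part was 0.29. With windows of 3 or more CpGs, the clusters had 1.89, 2.51 and 1.85 and the gamma variable parts 1.96. The alpha constant part then turned to 0.38 (-0.33 to 1.05) in 6 windows, and the differences of variable minus constant part were 2.51 in alpha and 0.96 in gamma. With windows of 1 or 2 CpGs, the clusters had 0.83, 1.79 and 1.22, and the alpha and gamma variable parts 2.45 and 1.41. Alpha minus beta was then -0.96, alpha minus gamma -0.39 (-0.53 to -0.25), and variable minus constant part in gamma 0.15 (-0.32 to 0.62). The cause was not tested. Of the 51 members higher over the gene span, 28 were called with the CpG-dense median and 16 at a fold of 4, against 4.73% and 3.67% of all genes. The own parts of all 22 members named by rule stayed above 0 under the 4 scalings and with the shorter own part, the lowest at 0.066 for Pcdhac2 with the CpG-dense median. Counting depth limits single regions: within 0.5 kb of the start 46 of 57 members had 20 fragments.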
